A study of Mus musculus with 4 samples.

Results

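Matrix metalloproteinases are zinc-dependent proteases that cut collagen, elastin and other proteins outside the cell, and the tissue inhibitors of metalloproteinases (TIMPs) bind their active sites and block them. The 10 genes described here were taken by symbol from the feature lists of the deposited matrices, 10 of the 31054 features each matrix held: the proteases Mmp2, Mmp3, Mmp8, Mmp9, Mmp12 and Mmp14 and the inhibitors Timp1, Timp2, Timp3 and Timp4. They were measured by droplet single-cell RNA sequencing of lungs from male C57BL/6 mice, aged 19 months when treatment began. Mice of the treated group received BPTES, an inhibitor of the glutaminase GLS1, for 1 month, and mice of the control group received DMSO, its vehicle, over the same time, with 2 libraries in each group. After enzymatic digestion the cells were sorted by CD45, a protein on the surface of leukocytes, and each library combined 20000 sorted cells without CD45 and 9000 with it, so the balance of leukocytes to other cells was set by the sort. Nothing in the labels says whether the 2 libraries of a group came from different mice, so p-values measure the spread between these libraries, which may be technical.

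In tissue, most metalloproteinases are secreted as inactive precursors that must themselves be cut. Mmp14 stays anchored in the cell membrane and, with the help of Timp2, activates the precursor of Mmp2. Timp3 binds to the extracellular matrix and also inhibits several ADAM proteases, whereas Timp1 is best known as a secreted inhibitor that is induced by cytokines of the interleukin-6 family and in fibrosis. In the lung, Mmp12 (macrophage elastase) is known for its part in emphysema, and Mmp8 (neutrophil collagenase) and Mmp9 (gelatinase B) are stored in neutrophil granules. The libraries measure RNA, and a granule protein can be present in a cell that no longer makes its RNA.

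The libraries held 260346570 to 342107092 UMIs (unique molecular identifiers, 1 per captured RNA molecule) in 16440 to 21986 barcodes, and 14407 to 18860 cells per library passed the filters, 63895 in all. Any pair of libraries had 75 to 121 barcodes in common. The cells formed 40 clusters, of which 30 were named from fixed markers and 10 stayed unnamed, giving 35 cell groups, 29 of them with at least 50 cells in every library. Markers of lung epithelium, endothelium, fibroblasts and leukocytes were all found, but AT1 (thin alveolar epithelium) and club cell markers led the same unnamed cluster. The ending "-like" of a name says that only RNA markers support it. The 10 genes were left out of the genes used for clustering.

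Promoter sequences are shown for Timp1, the inhibitor whose level in fibroblasts is described first, and for Mmp3 and Mmp12, whose promoters carried a match to the binding motif of AP-1, a transcription factor long linked to metalloproteinase genes. Each is the 250 bases before a RefSeq transcript start on GRCm38.p6, read 5′ to 3′ on the plus strand. Capitals mark the AP-1 motif TGANTCA, which was searched on both strands and reads the same on each. The Timp1 stretch (chrX:20869916-20870165) held no match, the Mmp3 stretch (chr9:7445572-7445821) held TGAGTCA at 46 to 40 bases before the start, and the stretch before the downstream of 2 Mmp12 starts (chr9:7347124-7347373) held it at 44 to 38 bases.
Timp1: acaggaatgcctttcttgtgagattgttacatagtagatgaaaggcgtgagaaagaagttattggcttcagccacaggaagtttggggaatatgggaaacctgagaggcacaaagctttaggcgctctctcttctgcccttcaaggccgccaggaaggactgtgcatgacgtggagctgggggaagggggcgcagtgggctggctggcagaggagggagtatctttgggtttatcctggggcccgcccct
Mmp3: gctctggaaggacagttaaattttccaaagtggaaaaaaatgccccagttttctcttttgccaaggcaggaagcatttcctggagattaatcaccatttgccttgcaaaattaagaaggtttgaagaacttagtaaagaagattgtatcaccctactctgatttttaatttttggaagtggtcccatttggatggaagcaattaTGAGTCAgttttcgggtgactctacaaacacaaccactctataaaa
Mmp12: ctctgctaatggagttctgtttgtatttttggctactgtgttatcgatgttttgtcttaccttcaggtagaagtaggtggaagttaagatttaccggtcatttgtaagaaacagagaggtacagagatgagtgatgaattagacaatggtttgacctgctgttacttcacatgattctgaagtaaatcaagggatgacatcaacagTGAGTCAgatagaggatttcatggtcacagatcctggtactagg
Of 32851 promoters of the same length, 6.75% held TGANTCA. The RefSeq table matched 8 of the 10 genes with 9 windows (Mmp3, Mmp8, Mmp14, Timp1, Timp2, Timp3 and Timp4 once each and Mmp12 at 2 starts), and none of these windows held, on either strand, the AP-1-like motif TGAGTAA (in 2.25% of all promoters; it differs from TGANTCA in 1 letter, so no site counts for both) or the STAT-type motif TTCNNNGAA (in 7.02%). A match is a description of letters, and its absence says only that these letters are not in this window.

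The proteases fell into a fibroblast set and a leukocyte set. Mmp2 and Mmp3 RNA came almost wholly from fibroblasts, Mmp8, Mmp9 and Mmp12 almost wholly from leukocytes, and Mmp14 mostly from fibroblasts with a part from endothelium. Of the UMIs of each gene over all 4 libraries, fibroblast groups held 94.8% for Mmp2, 96.6% for Mmp3 and 76.4% for Mmp14. Fibroblast groups here are the named fibroblast classes and the unnamed clusters 3, 6 and 23, which scored highest for alveolar fibroblast markers. Endothelial groups likewise include the unnamed clusters 4 and 13, which scored highest for general capillary endothelial markers. Ptprc encodes CD45, and groups with Ptprc UMIs in at least 50% of their cells held 96.4% of Mmp8, 98.3% of Mmp9 and 99.3% of Mmp12. Because the CD45 mix was set by sorting, these shares describe the libraries and not the intact lung. Levels below are CPM, UMIs of the gene per 1000000 UMIs of the summed cells of a group in 1 library, and are compared between cell groups for the same gene only. Orders of groups cover the 29 groups with at least 50 cells in every library; mesothelial-like cells, with 1 and 17 cells with BPTES and 220 and 65 with DMSO, are given beside the genes for which they held a high level.

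**Figure D1:**
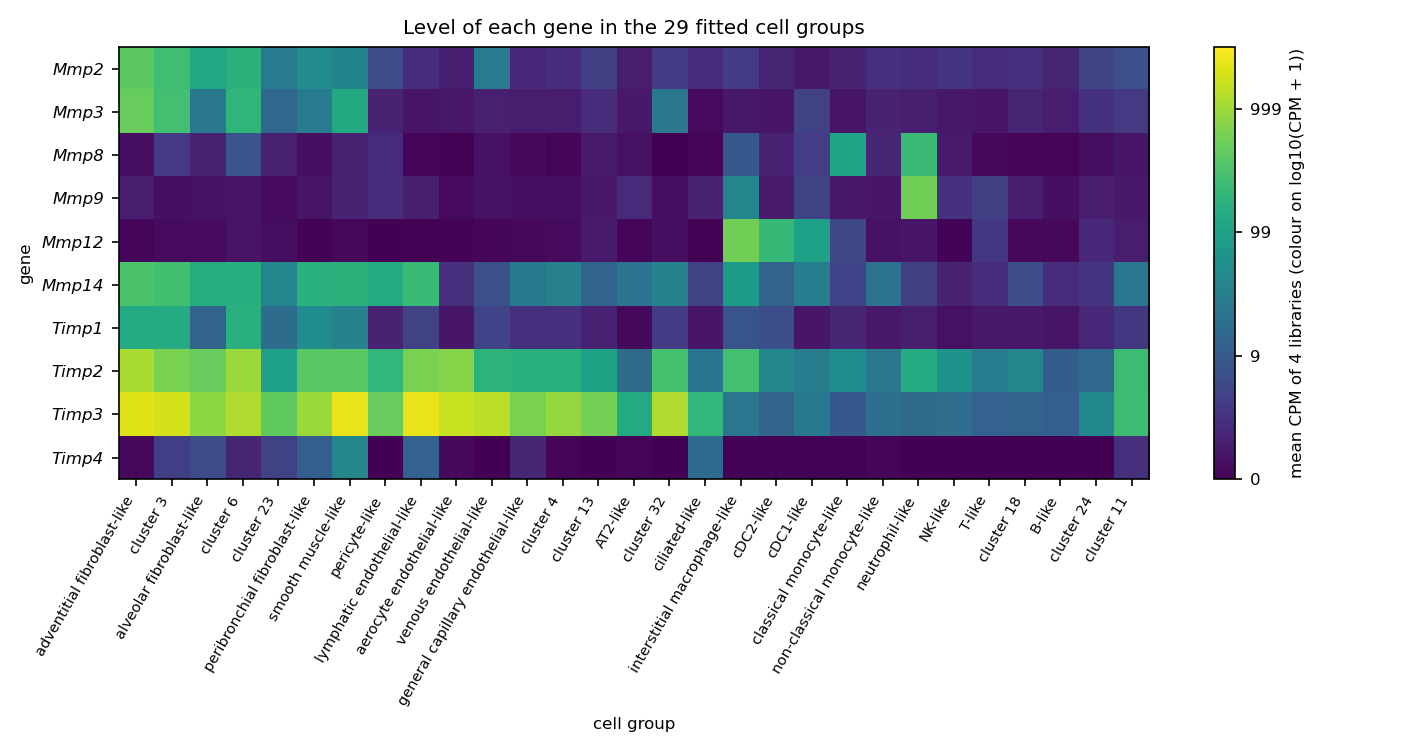
Mean CPM over the 4 libraries of each of the 10 genes (rows) in the 29 cell groups with at least 50 cells in every library (columns), coloured on a log10(CPM + 1) scale. Mmp2, Mmp3 and Timp1 share their high groups among the fibroblasts at the left, and Mmp8, Mmp9 and Mmp12 are each high in 1 to 3 leukocyte groups. Timp3 is spread over most groups that are not leukocytes, and Timp2 over fibroblast, endothelial and some leukocyte groups.

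Mmp2 (ENSMUSG00000031740), gelatinase A, which cuts denatured collagen and basement membrane collagen, was highest in adventitial fibroblast-like cells, the fibroblasts around vessels and airways. Its level there was 394 and 396 CPM in the BPTES libraries and 460 and 396 CPM in the DMSO libraries, a mean of 412 ± 32.2 (SD, n = 4). Next came cluster 3 with 270 ± 38.3 CPM, cluster 6 with 175 ± 30.2 and alveolar fibroblast-like cells, the lipid-rich fibroblasts of the alveolar wall, with 123 ± 23.9 (SD, n = 4 each). The first 3 did not overlap from library to library, whereas cluster 6 and the alveolar fibroblast-like cells did. Cluster 3 scored highest for alveolar fibroblast markers, with 7 of 7 of them detected, but it stayed unnamed because Mfap5, an adventitial marker, stood among its 10 leading genes, and so did Timp1. Cluster 6 also scored as alveolar fibroblast and stayed unnamed because its cells were shallow, at a median of 0.222 of their libraries' median UMIs. The gene lies at chr8:92827291-92853420 on the plus strand (GENCODE M21 on GRCm38, the assembly also called mm10).

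Mmp3 (ENSMUSG00000043613, chr9:7445822-7455975, plus strand), stromelysin, a broad matrix protease that also activates other precursors, followed the same order at the top with less certainty. Adventitial fibroblast-like cells had 521 and 352 CPM with BPTES and 528 and 529 CPM with DMSO, and cluster 3 had 210 and 335 CPM with BPTES and 193 and 387 CPM with DMSO, so these groups overlapped in single libraries. The adventitial class held 2 clusters that differed in this gene: Mmp3 stood at 677 ± 121 CPM in cluster 15 (led by Scara5, Gpc6 and Ccl11) and at 26.9 ± 16.6 CPM in cluster 25 (led by Adh7, Apod and Smoc2; SD, n = 4 each), with no overlap between libraries. Mmp2 had the opposite order, with 328 CPM in cluster 15 and 581 CPM in cluster 25. After each cell was thinned to 3000 UMIs, 22.6% of adventitial fibroblast-like cells had an Mmp3 UMI (35.3% without thinning), against 58.6% with an Mmp2 UMI and 0.193% of B-like cells with an Mmp3 UMI. A cell without a UMI may still hold the RNA, and the share is over both clusters of the class. In DMSO replicate 2, 132 Mmp3 UMIs of cluster 32 lay in 1 cell and 287 of the 289 of plasma-like cells in 2 cells, so those levels are not those of the groups.

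Mmp14 (ENSMUSG00000000957, chr14:54431612-54445364, plus strand), the membrane-bound activator of Mmp2, was highest of the 29 groups in adventitial fibroblast-like cells with 324 ± 24.3 CPM. Cluster 3 had 272 ± 18.9 CPM and lymphatic endothelial-like cells 232 ± 36.8 CPM (SD, n = 4 each). The first 2 did not overlap between libraries, and the second and the third did. Smooth muscle-like cells (178 ± 24.5 CPM) and peribronchial fibroblast-like cells (174 ± 26.03 CPM) followed and overlapped each other. Outside this order, mesothelial-like cells had 510.9 CPM in DMSO replicate 1, above every adventitial value, 125 CPM in DMSO replicate 2 and 255 CPM in the 17 cells of BPTES replicate 2, and held 15.6% of the Mmp14 UMIs of DMSO replicate 1.

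Mmp9 (ENSMUSG00000017737, chr2:164940780-164955850, plus strand) was the most concentrated of the 3 leukocyte proteases. Neutrophil-like cells held 92.7% of its UMIs (90.2% to 95.6% across libraries), at 552 and 465 CPM with BPTES and 680 and 511 CPM with DMSO. Interstitial macrophage-like cells came next with 37.8 ± 19.3 CPM, far below every neutrophil value. After thinning to 3000 UMIs, 77.9% of neutrophil-like cells had an Mmp9 UMI. In B-like cells, which should lack the gene and served as a measure of free RNA, the thinned share by library was 0% (0 of 619 cells, which allows up to 0.485%) and 0% (0 of 533 cells, up to 0.563%) with BPTES and 0.262% and 0.375% with DMSO. Median depth was 9113 to 10109 UMIs in neutrophil-like and 11896 to 12692 UMIs in B-like cells. The 2 neutrophil clusters differed: Mmp9 stood at 844 ± 103 CPM in cluster 10 and 217 ± 21.6 CPM in cluster 26 (SD, n = 4 each), with no overlap.

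Mmp8 (ENSMUSG00000005800, chr9:7558456-7568485, plus strand) had 2 sources. Neutrophil-like cells held 55.3% of its UMIs, at 224 and 233 CPM with BPTES and 245 and 273 CPM with DMSO. Classical monocyte-like cells, the circulating precursors of many tissue macrophages, held 37.6%, at 94.2 and 120 CPM with BPTES and 128 and 99.9 CPM with DMSO. The groups did not overlap, and within the neutrophils Mmp8 was again higher in cluster 10 (341 ± 43.7 CPM) than in cluster 26 (135 ± 20.6 CPM; SD, n = 4 each). The share of cells with an Mmp8 UMI was 42.0% in neutrophil-like and 24.3% in classical monocyte-like cells after thinning, but 66.2% and 67.0% before it, since monocytes were the deeper cells.

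Mmp12 (ENSMUSG00000049723, chr9:7344381-7369499, plus strand) marked interstitial macrophage-like cells, the macrophages of the lung tissue rather than of the alveolar space, and a part of the dendritic cells. Interstitial macrophage-like cells had 561 and 507 CPM with BPTES and 534 and 604 CPM with DMSO and held 65.0% of the gene's UMIs (50.5% to 78.0% across libraries). cDC2-like cells, a class of dendritic cells, came second at 219 ± 109 CPM (SD, n = 4) and did not reach the lowest macrophage value in any library. Of these macrophages 29.2% had an Mmp12 UMI after thinning and 40.3% before, a share that grows with depth. In B-like cells the thinned share was 0.162% in BPTES replicate 1 and 0% in the other libraries, where the limits were 0.563%, 0.262% and 0.225%. The gene overlaps Mmp1b on the opposite strand, and since the strand setting of the counting is not given in the sources used here, reads of the overlap cannot be told apart.

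Among the inhibitors, Timp1 (ENSMUSG00000001131, chrX:20870166-20874735, plus strand) was a fibroblast gene, with 90.8% of its UMIs in fibroblast groups and 1.93% in leukocyte groups. Of its UMIs, the unnamed clusters 3 and 6 held 46.5% and 6.32%. Its highest groups of the 29 were cluster 6 at 167 ± 50.9 CPM, cluster 3 at 142 ± 78.5 CPM and adventitial fibroblast-like cells at 138 ± 35.6 CPM (SD, n = 4 each), which overlapped one another. Peribronchial fibroblast-like cells had 49.1 ± 12.4 CPM, and all 4 libraries lay below the lowest value of these 3 groups. Mesothelial-like cells, not among the 29, had 137 CPM in DMSO replicate 1, 43.0 CPM in DMSO replicate 2 and 461 CPM in the 17 cells of BPTES replicate 2. Alveolar fibroblast-like cells had 12.04 ± 2.89 CPM, with 6.33% of the UMIs. Within the adventitial class Timp1 had the order of Mmp3 and not of Mmp2, with 176 ± 41.7 CPM in cluster 15 and 47.6 ± 8.80 CPM in cluster 25 and no overlap between libraries. The gene lies inside Syn1, on the opposite strand and with no Syn1 exon within it.

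Timp2 (ENSMUSG00000017466, chr11:118301069-118355740, minus strand), the partner of Mmp14 in activating Mmp2, was spread over fibroblast, endothelial and myeloid groups. Of the 29 groups, adventitial fibroblast-like cells had 1145 ± 35.1 CPM, cluster 6 had 945 ± 51.5, aerocyte endothelial-like cells (the large capillary cells of gas exchange) 731 ± 12.5 and lymphatic endothelial-like cells 634 ± 16.7 CPM (SD, n = 4 each). None of these neighbours overlapped, while lymphatic endothelial-like cells and cluster 3 (617 ± 29.5 CPM) did. Mesothelial-like cells, not among the 29, had 1114 and 1147 CPM in the DMSO libraries, near the adventitial level, and 709 CPM in the 17 cells of BPTES replicate 2. Fibroblast groups held 65.4% of the UMIs, endothelial groups 22.1% and leukocyte groups 6.96%. The gene overlaps Cep295nl on the same strand, and reads there cannot be assigned with certainty.

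Timp3 (ENSMUSG00000020044, chr10:86300372-86349506, plus strand), the matrix-bound inhibitor, had 57.8% of its UMIs in fibroblast and 36.4% in endothelial groups and 0.715% in leukocytes. Lymphatic endothelial-like cells (2446 ± 146 CPM), smooth muscle-like cells (2403 ± 323 CPM), adventitial fibroblast-like cells (2139 ± 291 CPM), cluster 3 (1909 ± 188 CPM) and aerocyte endothelial-like cells (1627 ± 204 CPM; SD, n = 4 each) each overlapped the next in order. Timp4 (ENSMUSG00000030317, chr6:115241892-115252205, minus strand) was sparse, with 2192 UMIs in all kept cells. It was highest in smooth muscle-like cells with 40.4 ± 15.1 CPM, and lower in ciliated-like cells with 16.0 ± 4.45 CPM and lymphatic endothelial-like cells with 11.6 ± 4.12 CPM (SD, n = 4 each). The ciliated and lymphatic groups overlapped. Most Timp4 UMIs lay elsewhere: fibroblast groups held 58.3%, with 38.1% in alveolar fibroblast-like cells, and smooth muscle-like cells held 10.5%. Timp3 lies inside Syn3 and Timp4 inside Syn2, each on the opposite strand with an exon of the synapsin within it, so their counts are uncertain to that extent. Syn3 had 25228 UMIs and Syn2 had 38412 UMIs in the kept cells. Of these, 8854 and 34459 lay in alveolar fibroblast-like cells, cluster 3 and adventitial fibroblast-like cells together.

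Across the 29 groups, mean log2(CPM + 1) of Timp1 had a Pearson correlation of 0.91 with Mmp2, 0.91 with Mmp3 and 0.75 with Mmp14, against 0.033 with Mmp8, -0.18 with Mmp9 and -0.06 with Mmp12. Timp2 and Timp3 correlated at 0.77, and Mmp8 and Mmp9 at 0.68. These describe 29 groups that come from the same 4 libraries and differ in depth. Among 14278 genes with at least 10 CPM in some group, the 2 most like Timp1 were Cpxm1 (0.94) and C4b (0.94), and those most like Mmp2 were Art4 (0.96) and Adh1 (0.96). The gene most like Mmp3 was Podn (0.96). The 2 most like Mmp8 were Tarm1 (0.93) and Padi4 (0.89), and those most like Mmp9 were Cxcr2 (0.96) and Retnlg (0.95), both of them neutrophil markers of the fixed list. For Mmp12 they were H2-M2 (0.96) and Ptchd1 (0.96), and for Mmp14 P3h3 (0.87) and Trip6 (0.87). For Timp2 they were Ctsl (0.88) and Ctsf (0.88), for Timp3 Tns2 (0.97) and Sgce (0.95), and for Timp4 Sntg2 (0.83) and Nov (0.81).

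BPTES against DMSO was tested in each of the 29 groups on UMIs summed per library, with edgeR's quasi-likelihood test over all genes of the group and Benjamini-Hochberg adjustment, called at an adjusted p under 0.05. No gene of the 10 was called in any group. Of 290 pairs of gene and group, 159 passed the filter on low counts, and the lowest edgeR adjusted p among them was 0.112. Over all genes and groups tested together, edgeR called 0.106% of tests. At an unadjusted p under 0.05 there were 31 of the 159, 19 higher and 12 lower with BPTES, against 11% of all tests. Both BPTES libraries lay above both DMSO libraries in 43 of the 159 (all tests: 21.2%) and below them in 28 (all tests: 21.4%), and the median log2 fold change of the 159 was 0.03. DESeq2 called 4 of these pairs (all tests: 1.06%): Mmp12 in cDC2-like cells, Timp1 in cluster 3, and Timp1 and Timp4 in general capillary endothelial-like cells. Pairs that failed the filter were not tested in the reported fit, so an absence of calls in them carries no information. With no filter on low counts, 280 of the 290 pairs were tested and 24 were called (all tests: 2.4%).

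**Figure D2:**
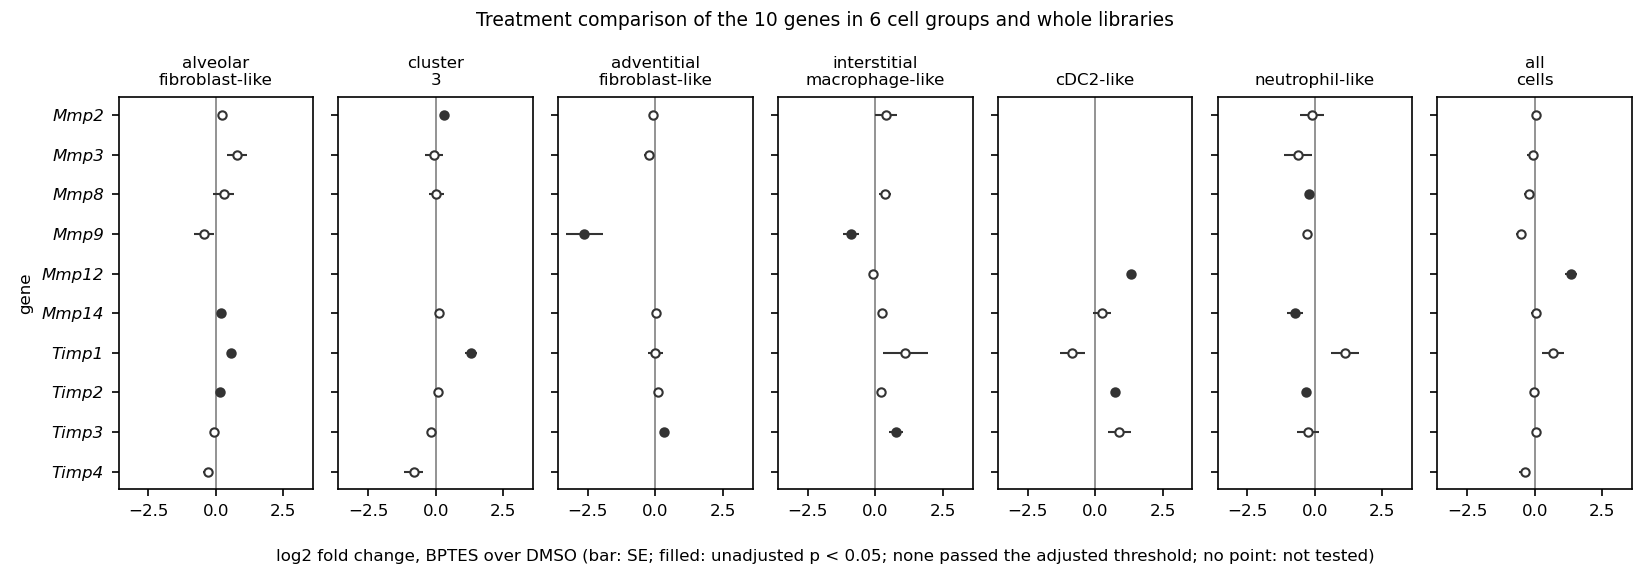
Log2 fold change of BPTES over DMSO for the 10 genes (rows) in 6 cell groups and in all kept cells (panels), with bars of 1 standard error from edgeR; filled points have an unadjusted p under 0.05, none passed the adjusted threshold, and a gene without a point was not tested there. Timp1 lies to the right in alveolar fibroblast-like cells (0.55) and cluster 3 (1.30) and at -0.01 in adventitial fibroblast-like cells, and Mmp12 lies at 1.32 in cDC2-like cells and -0.07 in interstitial macrophage-like cells.

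Timp1 was higher with BPTES in both libraries of the alveolar fibroblast-like class and of cluster 3, but neither difference passed the adjusted threshold. Levels in these comparisons are TMM-scaled CPM, in which the library sizes of a cell group are scaled by edgeR so that most genes match. In alveolar fibroblast-like cells Timp1 stood at 15.9 and 12.9 CPM with BPTES and at 9.17 and 10.4 CPM with DMSO. Both treated libraries lay above both controls, and the log2 fold change was 0.55 (SE 0.135, edgeR adjusted p = 0.138; 0.0568% of all genes of this class were called). The sums behind these values were 525, 451, 388 and 463 Timp1 UMIs from 1571, 1669, 2129 and 2248 cells. From 7.34% to 17.8% of each sum lay in the 2 richest cells, and without these cells the log2 fold change was 0.56.

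In cluster 3, Timp1 stood at 149 and 257 CPM with BPTES and at 86.5 and 78.6 CPM with DMSO. BPTES replicate 2 was the highest and the DMSO libraries were close to each other, with a log2 fold change of 1.30 (SE 0.225, edgeR adjusted p = 0.112; 0.101% of all genes were called in this cluster). Without BPTES replicate 1, BPTES replicate 2 or DMSO replicate 2 the gene was called (log2 fold changes 1.65, 0.86 and 1.24; edgeR adjusted p = 0.000178, 0.0228 and 0.0230; 2.41%, 0.163% and 2.67% of all genes called), in fits that leave 1 library alone in its group and assume that it varies like the others. Without DMSO replicate 1 it was 1.38 and not called (edgeR adjusted p = 0.181). In other partitions the cluster that overlapped cluster 3 most had Timp1 values of 0.27 to 1.30, not called (edgeR). With no filter on low counts Timp1 in cluster 3 was 1.33 and called (edgeR adjusted p = 1.84e-21, with 5.36% of all genes called). Smooth muscle markers, 7 of 7 with UMIs in cluster 3 and 3 of them at 10 CPM or more, were also higher with BPTES. They summed to 376 and 409 CPM with BPTES and 172 and 252 CPM with DMSO. Their sums were likewise higher in alveolar fibroblast-like cells (341 and 374 against 207 and 300 CPM), adventitial fibroblast-like cells and cluster 6. In peribronchial fibroblast-like cells they overlapped. The part of these markers in the result was not tested.

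The share of cells with a Timp1 UMI followed the level. After thinning to 3000 UMIs it was 19.4% and 25.4% with BPTES and 15.3% and 16.4% with DMSO in cluster 3, with exact 95% binomial intervals of 16.9% to 22.1%, 22.8% to 28.1%, 12.7% to 18.3% and 14.0% to 19.0%. The interval of BPTES replicate 2 lay above both DMSO intervals, and that of BPTES replicate 1 overlapped them. In alveolar fibroblast-like cells it was 3.55% and 2.65% against 2.09% and 2.11%, where the intervals of all 4 libraries overlapped (1.93% to 3.54% for BPTES replicate 2 and 1.56% to 2.80% for DMSO replicate 2). Without thinning these shares were 58.0%, 68.0%, 50.7% and 52.0% in cluster 3 and 17.6%, 12.5%, 9.16% and 10.5% in alveolar fibroblast-like cells, at median depths of 21709 to 25721 and 19379 to 21195 UMIs. B-like cells had a thinned share of 0% (0 of 619 cells, up to 0.485%) and 0.563% with BPTES and 0.0875% and 0.300% with DMSO. Intervals and limits cover counting error only.

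**Figure D3:**
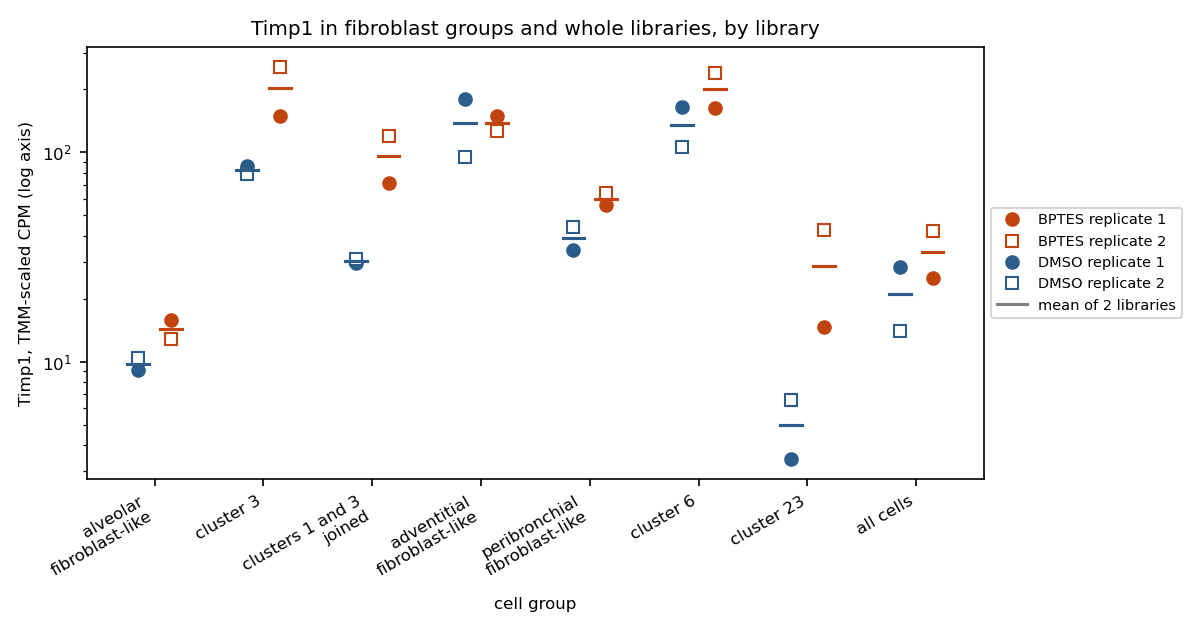
Timp1 in TMM-scaled CPM (log axis) in each of the 4 libraries, for 6 fibroblast groups, for clusters 1 and 3 joined, and for all kept cells; horizontal bars are means of 2 libraries. The groups do not overlap in alveolar fibroblast-like cells, cluster 3, the joined clusters, peribronchial fibroblast-like cells and cluster 23, and they overlap in adventitial fibroblast-like cells, cluster 6 and all cells.

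Whether Timp1 was called in alveolar fibroblasts turned on which clusters were counted as such. Alveolar fibroblast-like cells were cluster 1 alone, and joining cluster 3 to it gave 71.7 and 120 CPM with BPTES and 29.7 and 30.95 CPM with DMSO. That log2 fold change was 1.66 (SE 0.215, edgeR adjusted p = 0.0394; 0.401% of all genes were called). Naming every cluster by its marker score alone added the shallow clusters 6 and 23 to clusters 1 and 3. It gave 1.60 (edgeR adjusted p = 0.0404; 0.339% of all genes were called). Both joined values were above those of cluster 1 and of cluster 3 on their own, but cluster 23 on its own, described below, had a higher value. Cluster 3, which had the higher Timp1 level, made up 38.0% and 39.0% of the joined cells with BPTES and 23.5% and 27.9% with DMSO, and held 87.0%, 94.0%, 77.5% and 76.8% of their Timp1 UMIs in the same order. The direction was the same in the reported fit and in all 18 alternatives, from 0.41 to 1.96, and 5 of these 18 passed the adjusted threshold. The value was also far from the reported 0.55 in 2 alternatives that did not pass, at 1.57 with a mitochondrial limit of 20% (edgeR adjusted p = 0.0504) and 1.03 with doublets kept (edgeR adjusted p = 0.220).

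**Figure D4:**
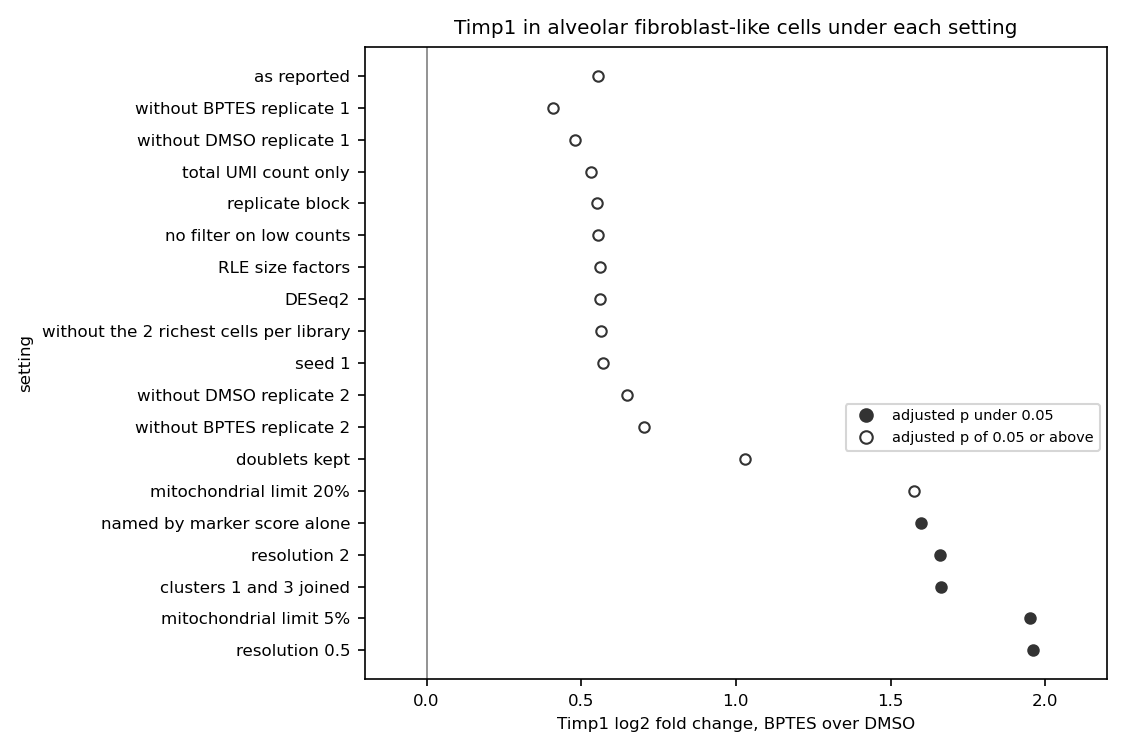
Log2 fold change of Timp1, BPTES over DMSO, in alveolar fibroblast-like cells in the reported fit and under each of 18 alternatives (rows, in order of value), with filled points where the adjusted p was under 0.05. All points lie above 0, and the 5 filled points are those at 1.60 and above, which are other ways of clustering, filtering or naming the cells.

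In adventitial fibroblast-like cells, a class with a higher Timp1 level, the groups overlapped. Timp1 stood at 149 and 126 CPM with BPTES and at 181 and 95.2 CPM with DMSO. The DMSO libraries were the highest and the lowest of the 4, the log2 fold change was -0.01 (SE 0.284, edgeR adjusted p = 0.993) and 0% of all genes were called in this class. Without DMSO replicate 1 the value was 0.52 and without BPTES replicate 2 it was 0.10 (edgeR adjusted p = 0.786 and 0.955), so its sign rests on single libraries. The class joins clusters 15 and 25, which differ in Timp1 level, and cluster 15, the higher, made up 192 of 305 and 380 of 598 cells with BPTES and 490 of 637 and 367 of 548 cells with DMSO. The part of this mix in the result was not tested. The thinned share of cells with a UMI was 27.2% and 22.0% with BPTES and 26.5% and 21.9% with DMSO.

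The difference between classes was tested itself, as an interaction of treatment and class with library as a block. The treatment effect on Timp1 in adventitial minus alveolar fibroblast-like cells was -0.51 (SE 0.310, edgeR adjusted p = 0.625; 0.00609% of all genes were called), so the classes were not shown to differ. Without DMSO replicate 1 this value was 0.08 (edgeR adjusted p = 0.970) and without DMSO replicate 2 it was -1.03 (edgeR adjusted p = 0.00479), and the 2 controls thus decide its sign and its call. Adventitial minus cluster 3 gave -1.20 (SE 0.35, edgeR adjusted p = 0.285; 0.0895% called), and cluster 3 minus alveolar gave 0.73 (SE 0.283, edgeR adjusted p = 0.392; 0.0554% called).

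In the other groups that passed the filter, Timp1 was more often higher than lower with BPTES, and in the reported fit no group passed the adjusted threshold. It was tested in 16 groups in all, which share the same 4 libraries, with a log2 fold change above 0 in 12 and below 0 in 4 and a median of 0.58. Both BPTES libraries were above both DMSO libraries in 7 of the 16 (all tests: 21.2%) and below in none (all tests: 21.4%), and 6 had an unadjusted p under 0.05 (all tests: 11%). A group with few UMIs, such as cluster 23 below, can pass the filter through its BPTES libraries alone, where a higher value is fixed. These counts are therefore a description and no support for a treatment effect. Peribronchial fibroblast-like cells, found around the airways, had 56.2 and 63.8 CPM with BPTES and 34.02 and 43.9 CPM with DMSO (log2 fold change 0.62, SE 0.172, edgeR adjusted p = 0.389). General capillary endothelial-like cells had 2.09 and 4.04 CPM against 1.06 and 0.97 CPM (1.59, SE 0.355, edgeR adjusted p = 0.141), on 82, 135, 35 and 50 UMIs. Shallow cluster 6 overlapped, with 163 and 239 CPM against 165 and 106 CPM (0.60, edgeR adjusted p = 0.415), and shallow cluster 23 had 14.6 and 42.5 CPM against 3.41 and 6.53 CPM (2.52, edgeR adjusted p = 0.271) on 3 to 30 UMIs per library. The cluster 6 value was 0.85 without BPTES replicate 1 and 0.93 without DMSO replicate 1, so its size rests on single libraries. Such fits leave 1 library alone in its group, so only their values are given, and not whether they passed the threshold. With no filter on low counts Timp1 in cluster 6 was 0.62 and called (edgeR adjusted p = 0.00358, with 0.566% of all genes called).

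Over all kept cells of a library, Timp1 stood at 25.04 and 42.1 CPM with BPTES and 28.2 and 14.0 CPM with DMSO, which overlapped (log2 fold change 0.67, SE 0.412, edgeR adjusted p = 0.421). Mesothelial-like cells, which line the lung surface, numbered 1 and 17 with BPTES and 220 and 65 with DMSO and held 14.8% of the Timp1 UMIs of DMSO replicate 1. Without them the values were 25.03 and 41.7 against 24.8 and 13.9 CPM (0.79, edgeR adjusted p = 0.319). None of the 10 genes was called over whole libraries by edgeR, where 0% of 21452 genes were called and 3780 had an unadjusted p under 0.05, Mmp12 among them. DESeq2 called Mmp12 there and no other of the 10 (6.72% of all genes were called).

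Mmp12 had higher values in both BPTES libraries over all cells and in cDC2-like cells, without passing the adjusted threshold, and overlapping values within interstitial macrophage-like cells, its main source. Over whole libraries it stood at 33.1 and 25.1 CPM with BPTES and 9.43 and 13.6 CPM with DMSO. Both treated libraries were above both controls (log2 fold change 1.33, SE 0.226, edgeR adjusted p = 0.189). Within interstitial macrophage-like cells it stood at 561 and 517 CPM against 543 and 588 CPM, with overlapping groups (-0.07, SE 0.112, edgeR adjusted p = 0.799). These macrophages made up 1.56% and 1.92% of kept cells with BPTES and 0.743% and 0.917% with DMSO, and their Mmp12 UMIs numbered 4264 and 4919 against 1668 and 3193. The shares rest on 237, 297, 107 and 173 cells, and how far they account for the whole-library difference was not tested.

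In cDC2-like cells Mmp12 stood at 355 and 275 CPM with BPTES and 124 and 129 CPM with DMSO. The groups were apart and the controls nearly equal, with a log2 fold change of 1.32 (SE 0.139, edgeR adjusted p = 0.128; 0% of 11244 genes were called). Between 39.9% and 47.2% of each library's sum lay in 2 cells, out of 108 to 172, and without the 2 richest cells per library the value was 1.25 (edgeR adjusted p = 0.285). The thinned share of cells with an Mmp12 UMI was 22.8% and 12.05% with BPTES and 10.2% and 9.40% with DMSO, and the exact 95% intervals of BPTES replicate 2 (7.52% to 18.0%) and both controls overlapped. Dropping BPTES replicate 1 gave 1.12 (edgeR adjusted p = 2.89e-10) and dropping BPTES replicate 2 gave 1.49 (edgeR adjusted p = 6.42e-10), which were called, with 1 library left in the group and a spread taken from the 2 nearly equal controls (1.07% and 2.07% of all genes called). Dropping DMSO replicate 1 or DMSO replicate 2 gave 1.29 and 1.34, not called (edgeR adjusted p = 0.485 and 0.398). The 7 interstitial macrophage markers, all with UMIs in this class, summed to 270 and 208 CPM with BPTES and 212 and 186 CPM with DMSO, and their part was not tested.

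**Figure D5:**
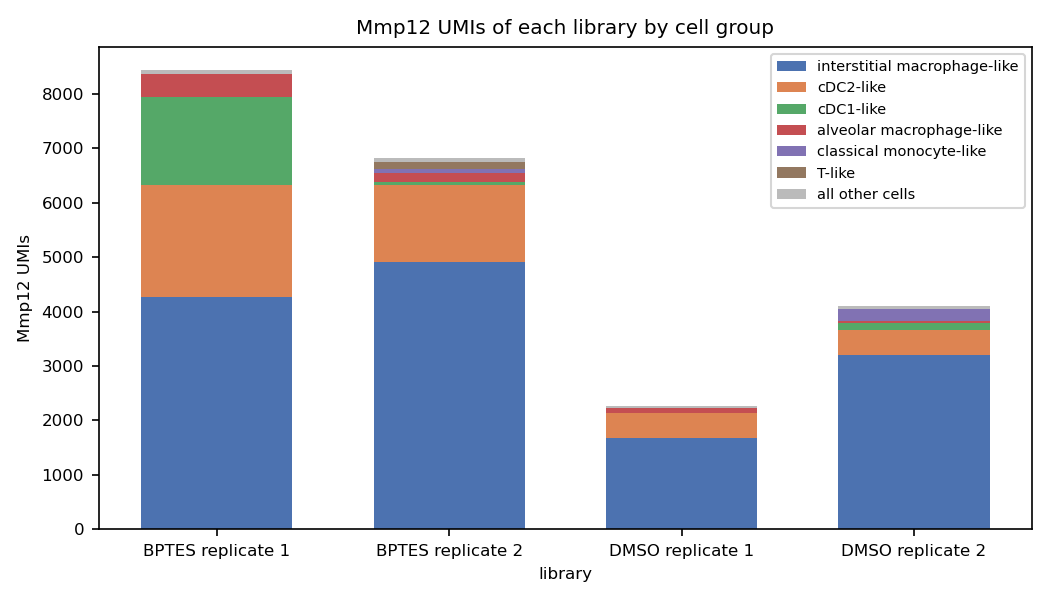
Mmp12 UMIs of each library (bars, linear axis from 0), split by the cell group that held them. The BPTES bars total 8444 and 6818 UMIs and the DMSO bars 2267 and 4095; interstitial macrophage-like and cDC2-like cells make up most of each bar, and the cDC1-like segment of BPTES replicate 1 lies almost wholly in 2 cells.

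The other sources of Mmp12 were smaller, and most varied widely between libraries. cDC1-like cells had 1614 UMIs in BPTES replicate 1, 98.3% of them in 2 cells, and 59, 0 and 121 UMIs in the other libraries. T-like cells of BPTES replicate 2 had 127 UMIs, of which 124 were in 1 cell. Alveolar macrophage-like cells had too few cells in DMSO replicate 1 (28) for a fit, and their 422, 152, 85 and 52 UMIs lay to 71.8% or more in 2 cells. Classical monocyte-like cells, 1 of the 4 groups in which Mmp12 was tested, had 9 and 81 UMIs with BPTES and 6 and 217 UMIs with DMSO, or 0.700 and 4.74 against 0.424 and 13.1 CPM. The groups overlapped and the log2 fold change was -1.27 (SE 1.148, edgeR adjusted p = 0.652), but with no filter on low counts the gene was called lower there (-1.26, edgeR adjusted p = 2.98e-05; 4.34% of all genes called). The same setting called Mmp12 higher in cDC2-like cells (1.33, edgeR adjusted p = 3.04e-06, with 0.412% of all genes called). It was also called higher in cDC1-like and T-like cells (3.37 and 5.47, with 2.12% and 2.58% of all genes called), on the rich cells named above.

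Mmp9 values were mostly lower with BPTES, and none passed the adjusted threshold. The gene was tested in 8 groups, with a log2 fold change below 0 in 7, and all 4 groups with an unadjusted p under 0.05 were lower with BPTES (all tests in either direction: 11%). A group that passed the filter on low counts only through its DMSO libraries could only come out lower, so this tally is no support. In neutrophil-like cells, where nearly all of it was made, it stood at 542 and 456 CPM with BPTES and 715 and 507 CPM with DMSO, which overlapped (-0.29, SE 0.164, edgeR adjusted p = 0.631). The thinned share of neutrophil-like cells with a UMI was 78.7% and 72.3% with BPTES and 83.6% and 76.7% with DMSO. Interstitial macrophage-like cells had 25.3 and 28.1 CPM against 32.6 and 64.6 CPM (-0.90, SE 0.281, edgeR adjusted p = 0.168), and T-like cells 3.03 and 1.28 against 5.88 and 4.38 CPM (-1.25, edgeR adjusted p = 0.374). Adventitial fibroblast-like cells had 0.336 and 0.168 CPM against 0.953 and 2.01 CPM (-2.63, edgeR adjusted p = 0.237), on 3, 3, 18 and 30 UMIs. Mmp9 passed the filter there through the DMSO libraries alone, so a lower value was fixed in advance.

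Neutrophil markers were also read outside neutrophils, beside these low Mmp9 values. In adventitial fibroblast-like cells 7 of 7 neutrophil markers had UMIs, and they summed to 19.2 and 25.6 CPM with BPTES and 46.8 and 176 CPM with DMSO. In interstitial macrophage-like cells they summed to 1183 and 1133 CPM against 1703 and 676 CPM (7 of 7 with UMIs). Their part in the Mmp9 values was not tested. Neutrophil-like cells were 4.14% and 4.33% of kept cells with BPTES and 5.31% and 3.998% with DMSO.

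Of the 8 members tested in neutrophil-like cells, 4 had both BPTES libraries below both DMSO libraries (Mmp3, Mmp8, Mmp14 and Timp2; all genes: 20.1%) and 1 had them above (Timp1; all genes: 20.9%), and none was called. A gene with few UMIs, such as Mmp3 or Timp1 here, can pass the filter through the libraries of a single group, which fixes its direction. This tally is therefore a description and no support for a treatment effect. Mmp8 stood at 220 and 229 CPM with BPTES and 257 and 271 CPM with DMSO in neutrophil-like cells, with the groups apart (-0.24, SE 0.091, edgeR adjusted p = 0.514). Timp2 in the same cells stood at 122 and 132 CPM against 166 and 153 CPM, also apart (-0.33, SE 0.099, edgeR adjusted p = 0.431). Mmp14 stood at 2.87 and 2.59 against 4.44 and 4.66 CPM (-0.74, edgeR adjusted p = 0.519), Mmp3 at 0.956 and 0.598 against 1.06 and 1.32 CPM (-0.63, edgeR adjusted p = 0.750) and Timp1 at 1.07 and 1.49 against 0.579 and 0.615 CPM (1.10, edgeR adjusted p = 0.579), on 6 to 53 UMIs per library. At resolution 2 and with seed 1 a second neutrophil cluster went unnamed, which left the same smaller class of 498, 501, 634 and 565 cells in both, and Timp2 was called in it (-0.46, edgeR adjusted p = 0.0493; 1.39% of all genes called).

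In the reported fit the fibroblast proteases passed the test in no group. In adventitial fibroblast-like cells, their highest group, Mmp2 stood at 394 and 405 CPM with BPTES and 461 and 388 CPM with DMSO (-0.09, SE 0.109, edgeR adjusted p = 0.741), Mmp3 at 520 and 361 against 530 and 517 CPM (-0.25, SE 0.172, edgeR adjusted p = 0.539) and Mmp14 at 337 and 316 against 353 and 293 CPM (0.01, SE 0.114, edgeR adjusted p = 0.964). All 3 overlapped between groups. In cluster 3, Mmp2 was apart, at 325 and 275 CPM against 236 and 245 CPM (0.32, SE 0.102, edgeR adjusted p = 0.209). In alveolar fibroblast-like cells Mmp14 was also apart, at 168 and 149 CPM against 132 and 144 CPM (0.20, SE 0.085, edgeR adjusted p = 0.279), as was Mmp3, at 33.5 and 28.2 CPM against 10.0 and 25.7 CPM (0.78, SE 0.355, edgeR adjusted p = 0.306). DMSO replicate 1 was the lowest by far, and without DMSO replicate 2 the Mmp3 value was 1.62. In cluster 6 Mmp3 went the other way, at -0.77 without BPTES replicate 2 and -0.78 without DMSO replicate 1. These fits leave 1 library alone in its group, so only their values are given, and not whether they passed the threshold.

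Among the remaining inhibitors, Timp2 in alveolar fibroblast-like cells stood at 530 and 496 CPM with BPTES and 449 and 462 CPM with DMSO, which did not overlap (0.17, SE 0.071, edgeR adjusted p = 0.276). Timp3 in adventitial fibroblast-like cells stood at 2450 and 2301 CPM against 1767 and 2052 CPM, also apart (0.32, SE 0.114, edgeR adjusted p = 0.312). Over the 29 groups in which Timp3 was tested, 12 log2 fold changes were above 0 and 17 below, with a median of -0.07. Timp4 was tested in 7 groups and was below 0 in 6 of them. In smooth muscle-like cells, its highest group, it stood at 21.8 and 37.4 CPM against 49.4 and 54.2 CPM, apart but not called (-0.82, SE 0.344, edgeR adjusted p = 1.00). In general capillary endothelial-like cells it stood at 0.331 and 0.389 CPM against 3.85 and 0.815 CPM (-2.63, SE 0.790, edgeR adjusted p = 0.167), on 13, 13, 127 and 42 UMIs, so DMSO replicate 1 carried most of that difference. With a block on replicate number both Timp1 (1.57, edgeR adjusted p = 0.0142) and Timp4 (-2.51, edgeR adjusted p = 0.0159) were called in general capillary endothelial-like cells, where that fit called 10.2% of all genes and the fit without the block called 0 of 15372.

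In dendritic cells, 3 of the 6 members tested in cDC1-like cells (all genes: 7.85%) and 2 of the 5 tested in cDC2-like cells (all genes: 6.69%), Mmp12 among the latter, had an unadjusted p under 0.05 with higher values under BPTES, and none was called. Timp2 stood at 57.7 and 45.6 CPM with BPTES and 28.0 and 33.5 CPM with DMSO in cDC2-like cells (0.75, SE 0.173, edgeR adjusted p = 0.527), and at 35.3 ± 6.11 against 23.2 ± 1.21 CPM (mean ± SD of 2 libraries) in cDC1-like cells (0.60, SE 0.190, edgeR adjusted p = 0.514). Mmp14 stood at 30.8 and 46.1 against 19.97 and 22.8 CPM in cDC1-like cells (0.83, SE 0.235, edgeR adjusted p = 0.463). In each of these 3 the treated libraries lay above the controls. Of all members tested, this held for 4 of 6 in cDC1-like cells (all genes: 20.1%) and 2 of 5 in cDC2-like cells (all genes: 17.9%). Mmp8 in cDC1-like cells stood at 7.53 and 3.84 against 1.43 and 0.752 CPM (2.46, edgeR adjusted p = 0.443), on 34, 19, 3 and 3 UMIs. Mmp8 passed the filter there through the BPTES libraries alone, so a higher value was fixed in advance. It is counted in the 4 of 6 above, so the tallies of cDC1-like cells are no support for a treatment effect.

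Pericyte-like cells, the contractile cells of the capillary wall, had Timp3 at 608 and 514 CPM with BPTES and 358 and 491 CPM with DMSO, apart but not called (0.39, SE 0.151, edgeR adjusted p = 0.694). Peribronchial fibroblast-like cells had the opposite order for Timp3, at 871 and 826 against 1057 and 974 CPM (-0.26, SE 0.113, edgeR adjusted p = 0.480). Timp4 in ciliated-like cells of the airway stood at 19.8 and 19.3 against 10.2 and 14.7 CPM (0.60, SE 0.240, edgeR adjusted p = 0.555), the 1 group of 7 in which its log2 fold change was above 0. Timp3 in pericyte-like cells was called without DMSO replicate 2 (0.65, edgeR adjusted p = 0.0321; 1.16% of all genes called), Timp2 in cDC2-like cells without BPTES replicate 2 (0.91, edgeR adjusted p = 0.00710; 2.07% called) and Mmp9 in interstitial macrophage-like cells without DMSO replicate 1 (-1.27, edgeR adjusted p = 0.0330; 0.947% called). Timp2 in NK-like cells, a lymphocyte class, stood at 59.1 and 40.7 against 64.3 and 75.5 CPM (-0.50, SE 0.189, edgeR adjusted p = 0.602).

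Genes around this system were read from 6 lists with 85 genes: other matrix metalloproteinases, ADAM and ADAMTS proteases, proteins that activate or clear metalloproteinases, other elastin and collagen proteases, their substrates, and inducers of Timp1. Over the 29 groups, 1540 tests of list genes gave 11 edgeR calls, 5 higher and 6 lower with BPTES (all genes and groups together: 0.106% of tests called). No list gene was called in alveolar or adventitial fibroblast-like cells or in cluster 3. Among the 17 other matrix metalloproteinases 0 of 103 tests were called, of the ADAM and ADAMTS proteases 1 was higher and 1 lower of 343, and of the activation and clearance genes 1 was higher and 2 lower of 387. Of the other elastin and collagen proteases 0 were higher and 1 lower of 174, of the substrates 2 were higher and 1 lower of 271, and of the inducers of Timp1 1 was higher and 1 lower of 262. The lower one was Socs3, a gene of that list which is known as a feedback inhibitor of interleukin-6 signalling and not as an inducer. Substrates had a median log2 fold change of 0.20 in alveolar fibroblast-like cells and 0.23 in cluster 3, where the medians over all genes were -0.01 and -0.01, and -0.15 in adventitial fibroblast-like cells, where it was -0.01 as well. Inducers of Timp1 had medians of -0.25 in alveolar fibroblast-like cells and 0.08 in cluster 3.

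Of the 11 calls, 6 were outside interstitial macrophage-like cells, and all 11 are named because of their values. In AT2-like cells, the surfactant-making cells of the alveolus (0.261% of all genes called), Socs3 was lower with BPTES (-0.98, edgeR adjusted p = 0.0158) and Thbs1, a matrix glycoprotein, was higher (0.75, edgeR adjusted p = 0.0468). Thbs1 was lower in non-classical monocyte-like cells (-0.93, edgeR adjusted p = 0.0150; 0.121% called), Lcn2, which binds Mmp9, in classical monocyte-like cells (-2.17, edgeR adjusted p = 0.00751; 0.115% called) and Dcn, the proteoglycan decorin, in cluster 6 (-1.01, edgeR adjusted p = 0.00859; 0.107% called). Cma1, a mast cell chymase, was lower in unnamed cluster 11, with 0 and 0 UMIs with BPTES and 751 and 216 UMIs with DMSO (edgeR adjusted p = 0.0396; 0.0977% called). Cma1 passed the filter there through the DMSO libraries alone and could only come out lower, so its place among the lower calls is no support. Whether a few cells held its UMIs was not checked. These 6 calls were not recomputed under the alternatives.

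The other 5 of the 11 calls were in interstitial macrophage-like cells, where edgeR called 1.55% of all genes. Spp1 (osteopontin, a substrate of several metalloproteinases) stood at 203 and 286 CPM with BPTES and 42.3 and 29.4 CPM with DMSO, with the groups far apart (log2 fold change 2.80, SE 0.224, edgeR adjusted p = 0.00592). Fn1 (fibronectin, a matrix glycoprotein) stood at 2143 and 2269 CPM against 1031 and 651 CPM (1.39, SE 0.208, edgeR adjusted p = 0.0314). Osm (oncostatin M, a cytokine of the interleukin-6 family that induces Timp1 in fibroblasts) stood at 72.5 and 73.4 CPM against 43.0 and 45.8 CPM (0.71, SE 0.108, edgeR adjusted p = 0.0322). Adam15 was higher (0.62, edgeR adjusted p = 0.0448) and Adamts9 lower (-1.11, edgeR adjusted p = 0.0448). Fn1 lost its call without BPTES replicate 2 (edgeR adjusted p = 0.0717), and Osm, Adam15 and Adamts9 lost theirs without any 1 of the 4 libraries (edgeR adjusted p = 0.0713 to 0.176). With a block on replicate number Osm, Adam15 and Adamts9 were not called (edgeR adjusted p = 0.0837, 0.0950 and 0.0837), nor with total UMI scaling (0.0515 for each), with doublets kept, at a mitochondrial limit of 20% or at resolution 0.5 (edgeR adjusted p = 0.0797 to 0.584 over these last 3). Adamts9 was -0.68 with doublets kept, -1.68 at the 20% limit and -0.66 at resolution 0.5, and with seed 1 neither Adam15 nor Adamts9 was called (edgeR adjusted p = 0.0705 and 0.0891). At a mitochondrial limit of 5% none of the 5 was called: Spp1 was 2.52 (edgeR adjusted p = 0.0633), Fn1 was 1.37 (edgeR adjusted p = 0.0650) and Adamts9 was -0.08 (edgeR adjusted p = 0.965). At that limit and at resolution 0.5 no cDC2-like class was left, and the cDC2 markers Mgl2 and Cd209a were among the leading genes of the macrophage class. This class then held 388, 450, 196 and 286 cells and 409, 465, 215 and 290 cells, against 237, 297, 107 and 173 as reported. These 2 fits thus cover a wider mix of cells. In these same cells 8 members were tested and none was called. Both BPTES libraries lay above both DMSO libraries for 5 of them (Mmp2, Mmp8, Mmp14, Timp2 and Timp3; all genes: 25.1%) and below for 1 (Mmp9; all genes: 24.9%), and the groups overlapped for Mmp12 and Timp1. Mmp8 stood at 9.74 and 8.94 CPM against 7.16 and 7.36 CPM (0.36, edgeR adjusted p = 0.478), Mmp14 at 92.5 and 83.04 against 79.1 and 68.8 CPM (0.25, edgeR adjusted p = 0.323) and Timp2 at 301 and 313 against 245 and 282 CPM (0.22, edgeR adjusted p = 0.377). Timp3 stood at 26.3 and 32.3 CPM against 11.7 and 21.5 CPM (0.77, SE 0.264, edgeR adjusted p = 0.200).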

How the data were processed

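For each library the authors deposited a filtered matrix of raw UMI counts (features by barcodes), made with Cell Ranger 8.0.1 against mm10 per the submitters' processing notes, from a 10x GEM-X 3' kit per the labels' protocols. The strand setting of the counting is not given in the sources used here.

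Barcodes were kept with at least 500 genes, 1000 UMIs and at most 10% mitochondrial UMIs. Doublets were scored against simulated cell pairs and the highest scores removed, 0.4% per 1000 barcodes (942 to 1689 cells per library). Cells were clustered from 2000 variable genes without the 10 members, with 40 principal components, 15 neighbours and the Leiden algorithm (igraph 0.11.9, resolution 1, seed 0), in Python 3.11.15 with umap-learn 0.5.12, scipy 1.17.1, numpy 2.4.6 and pandas 2.3.3. Each cluster was assigned to whichever of 32 marker classes scored highest, and stayed unnamed for a score under 1.5, fewer than 3 markers detected in 10% of cells, markers of another class in the lead among its 10 leading genes, or shallow cells. Median depth was 13934 to 15782 UMIs per cell.

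UMIs were summed per library and cell group, filtered with filterByExpr and tested two-sided with edgeR 4.0.16 in R 4.3.3 (TMM, quasi-likelihood test, treatment only), adjusted by Benjamini-Hochberg over all genes of a group. DESeq2 1.42.0 was an alternative, as were other scaling, filters, clustering, a replicate block and leaving out each library. Intervals on shares are exact (Clopper-Pearson, 95%), and a count of 0 was given a limit of 3 cells. The scripts were tested on simulated data. Figures were drawn with matplotlib 3.10.9. The members and lists were chosen with earlier results of these data known. The text names the 10 members in every group, list genes called in alveolar or adventitial fibroblast-like cells, and for each member the 2 genes with the highest correlation over groups. Spp1, Fn1, Osm, Adam15, Adamts9, Socs3, Thbs1, Lcn2, Dcn and Cma1 fall outside this rule.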

Additional observations from a re-analysis of the deposited data

How the results depend on the processing

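The count of members called per cell class, 0 in the reported fit, was 0 with RLE size factors, with total UMI counts, with doublets kept and with a mitochondrial limit of 20%. With the share of all tests called in the same fits (0.106% as reported), it was 4 with DESeq2 (1.06%), 24 with no filter on low counts (2.4%), 1 at a limit of 5% (0.163%), 1 at resolution 0.5 (0.0681%), 2 at resolution 2 (0.156%), 1 with seed 1 (0.139%) and 1 with names from the marker score alone (0.132%), and 4 to 8 with a library left out (0.419% to 1.79%). Over whole libraries the count was 0 in 12 of 13 alternatives and 1 with DESeq2. Replicate numbers were not taken to pair the libraries, since the labels name no shared animal or batch. Deviations of same-numbered libraries from their group means had correlations of -0.19 to 0.15 over the cell groups and -0.11 over whole libraries. The highest was in general capillary endothelial-like cells. With 2 libraries in each group such values cannot exclude a pairing. With the replicate block the count per class was 2 (0.927% of all tests called), Timp1 in alveolar fibroblast-like cells was 0.55 (edgeR adjusted p = 0.183) and Timp1 in adventitial fibroblast-like cells was 0.063.

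Timp1 in alveolar fibroblast-like cells (0.55 as reported) passed the threshold at 1.95 with the 5% limit, 1.96 at resolution 0.5, 1.66 at resolution 2, 1.66 with clusters 1 and 3 joined and 1.60 by marker score alone, the last 2 chosen after seeing the data; it was 1.57 with the 20% limit and 1.03 with doublets kept, not called; with a library left out it was 0.41 to 0.70. Timp1 in adventitial fibroblast-like cells (-0.01) was 0.24 with the 5% limit, 0.27 at resolution 0.5 and -0.39 to 0.52 with a library left out (0.104 without BPTES replicate 2 and 0.521 without DMSO replicate 1). The adventitial minus alveolar difference (-0.51) was -1.03 to 0.0821 with a library left out, reversed at 0.0821 without DMSO replicate 1. In each other partition the cluster that overlapped cluster 3 most was taken, by shared cells over joint cells (0.290 to 0.885). Timp1 in these clusters was 0.27 to 1.30, called in none (edgeR). At resolution 0.5, with the overlap of 0.290, it was the adventitial fibroblast-like cluster, which need not hold most cells of cluster 3. The cell group with the highest mean CPM was the same for 10 of 10 members with seed 1, and the one with the highest share of cells carrying the gene was the same for 6 of 10 without thinning (not for Mmp8, Timp2, Timp3 and Timp4). No member was called in the reported fit, so alternatives for called members gave no values. Depth limits Timp4 and the members in groups where they failed the filter.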
